A study of Rattus norvegicus with 24 samples.

Results

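The numbered zinc finger protein genes of the rat testis were followed across 6 groups of animals exposed to dibutyl phthalate (DBP) or to corn oil. The members are the genes with a symbol made of Zfp, Znf or Zscan and a number, without Zfp36, an RNA-binding protein of another kind that carries the same prefix. They were taken from probe sets with a single gene symbol, and a gene with more than 1 of these is represented by its brightest, judged by the mean of the 24 arrays. This gave 206 genes of the 14217 genes so represented on the array, 192 named Zfp, 6 named Znf and 8 named Zscan. They hold 327 probe sets: 131 genes have 1 probe set and 75 have several, up to 8. The rule for members rests on gene names alone and uses no measured difference between groups. Earlier results of these data were known when it was set. The members' mean intensities over 24 arrays ran between 13 and 2700.1 with a median of 341.0, against a median of 426.6 over all genes, and 19 members had a mean under 64.

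RNA of whole testes of male Fisher 344 rats, with the capsule removed, was hybridised to Affymetrix Rat230_2 arrays, each sample to its own array. Dams were given 50 mg/kg DBP, a plasticizer that disturbs male reproductive development in rats, or corn oil by gavage each day between gestational days 12 and 20. Male offspring received a second gavage at postnatal day 35 (PND35) of 500 mg/kg DBP or corn oil, and the testes were taken 6 hours later. The 4 groups of PND35 are named by fetal and then postnatal exposure: DBP-DBP (pups 124, 128, 133 and 135), DBP-oil (pups 123, 127, 132 and 134), oil-DBP (pups 105, 111, 115 and 121) and oil-oil (pups 104, 110, 114 and 120). The 2 fetal groups were collected on gestational day 20 (GD20): GD20_DBP (dams 16, 18, 19 and 21), 6 hours after the last dose, and GD20_oil (dams 2, 3, 4 and 5), for which no interval is recorded here. Pooled RNA is given in the labels for dam 2. The litters of the pups are not given in the labels used here, so p-values measure the spread between these samples. Values of a group are given below in the order of these dam or pup numbers, as deposited linear intensity. Fold changes are on the log2(intensity + 16) scale with the standard error (SE) of limma's moderated fit, which understates the change of dim genes. A gene passed the threshold where limma's p, adjusted by the Benjamini-Hochberg method over 31042 probe sets, was under 0.05.

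Spermatocyte and spermatid markers were far higher at PND35 than at GD20. The 6 spermatocyte markers summed to between 46141 and 58745 over the PND35 arrays and to between 1745 and 3889 over the GD20 arrays. The 7 spermatid markers summed to between 78341 and 130919 at PND35 and to between 430 and 504 in GD20_oil. In GD20_DBP they reached 4360, in the array of dam 21, which was kept in the GD20 comparison except where its omission is stated. All 7 had positive fold changes at GD20, with a median of 0.85, and 0 passed. The spermatocyte markers reached 3889 in GD20_DBP, against at most 2188 in GD20_oil. The cause of these differences was not tested. RNA integrity numbers lay between 8.5 and 8.7 in oil-DBP against 8.2 and 8.6 in oil-oil, and between 8.5 and 8.9 in DBP-DBP against 8.6 and 8.9 in DBP-oil. Bacterial poly-A transcripts, spiked into the RNA as labelling controls, had mean log2 values between 7.30 and 7.53 on the DBP-DBP arrays and between 5.89 and 6.14 on the oil-DBP and oil-oil arrays. The DBP-oil arrays held 2 of each kind. In a whole testis, fewer cells of a type and less RNA per cell cannot be told apart.

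Most members encode proteins built on repeated C2H2 fingers, in which 2 cysteines and 2 histidines hold a zinc ion and each finger can contact DNA bases. Many also carry a KRAB domain, which recruits the corepressor Trim28 and through it silencing complexes, and whose known targets include retroelements. A smaller number with few fingers act on RNA, ribosomes or ubiquitin, or are classical activators of named promoters. Male germ cells express many of these genes at successive stages of spermatogenesis.

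RefSeq promoter sequences of build GRCr8 were found for 169 of the 206 members by gene number, and the 250 bases before the annotated start were read. The motif GGGCGG, bound by Sp1, stood on either strand in 45.6% of the members' windows and in 32.4% of the 27457 windows of that length in the table. CCAAT stood in 42.6% of the members' windows and in 34.3% of all. TGANTCA (AP-1) stood in 6.51% of the members' windows and 6.36% of all, TGACGTCA (CRE) in 3.55% and 1.70%, and GCGNGGGCG (Egr factors), which can overlap GGGCGG, in 6.51% and 4.53%. The members' windows had a median GC content of 56.0%, against 52.0% over all. The windows of Zfp697 and Zfp46, which rose after postnatal DBP in both comparisons below, of Zfp653, which fell in 1 of them, and of Zfp819, the member with the largest increase with age, are printed 5′ to 3′ on the gene's strand. Capitals mark CCAAT, read here as ATTGG on the opposite strand. The windows lie at chr2:188659044-188659293 (plus strand) for Zfp697, chr5:153802637-153802886 (plus strand) for Zfp46, chr8:28880942-28881191 (minus strand) for Zfp653 and chr1:103174554-103174803 (plus strand) for Zfp819.
Zfp697: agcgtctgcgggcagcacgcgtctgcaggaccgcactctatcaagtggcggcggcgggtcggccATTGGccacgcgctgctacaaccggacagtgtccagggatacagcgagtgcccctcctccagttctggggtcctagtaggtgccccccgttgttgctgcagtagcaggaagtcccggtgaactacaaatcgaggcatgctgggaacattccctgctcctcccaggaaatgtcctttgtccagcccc
Zfp46: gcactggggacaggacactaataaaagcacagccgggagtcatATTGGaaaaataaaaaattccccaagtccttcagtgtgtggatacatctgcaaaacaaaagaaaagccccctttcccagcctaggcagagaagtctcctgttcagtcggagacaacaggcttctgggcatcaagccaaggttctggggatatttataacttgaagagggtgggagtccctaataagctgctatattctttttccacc
Zfp653: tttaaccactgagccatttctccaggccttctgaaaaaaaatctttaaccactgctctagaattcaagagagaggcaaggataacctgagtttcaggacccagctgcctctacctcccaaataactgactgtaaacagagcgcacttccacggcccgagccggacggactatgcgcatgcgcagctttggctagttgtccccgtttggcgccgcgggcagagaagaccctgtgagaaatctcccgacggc
Zfp819: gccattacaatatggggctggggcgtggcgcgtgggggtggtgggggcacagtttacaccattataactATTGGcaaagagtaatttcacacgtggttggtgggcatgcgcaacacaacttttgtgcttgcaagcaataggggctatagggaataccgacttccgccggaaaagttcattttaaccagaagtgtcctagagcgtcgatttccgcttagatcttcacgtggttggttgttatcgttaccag
None of the windows shown held GGGCGG, the AP-1, CRE or Egr motifs, and that of Zfp653 held no CCAAT.

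The first postnatal comparison sets oil-DBP against oil-oil and asks what a single gavage of DBP did within 6 hours in testes that had not met it before. Of the 206 members, 3 rose and 9 fell. That is 1.46% called higher and 4.37% called lower, where 6.18% of all 14217 genes were called higher and 5.99% lower. Zfp697, known in mouse as an RNA-binding protein of injured skeletal muscle, had the largest rise. It measured 1161, 2171, 1516 and 2141 in oil-DBP against 739, 676, 744 and 908 in oil-oil. All 4 oil-DBP arrays lay above all 4 oil-oil arrays, and pups 111 and 121 were highest. The log2 fold change was 1.07 ± 0.15 (SE, limma adjusted p = 7.17e-05).

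Zfp189, a KRAB zinc finger protein linked in mouse prefrontal cortex to resilience under stress, measured 597, 713, 642 and 712 in oil-DBP against 420, 511, 554 and 453 in oil-oil. Each oil-DBP array was above each oil-oil array, and the fold change was 0.39 ± 0.10 (limma adjusted p = 0.0159). Zfp46 measured 479, 453, 393 and 550 in oil-DBP against 301, 287, 316 and 371 in oil-oil. These groups did not overlap, and the lowest oil-DBP array, pup 115, lay close to the highest oil-oil array, pup 120. Zfp46 rose by 0.47 ± 0.13 (limma adjusted p = 0.0325).

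Among the falls, Zfp395 had the smallest adjusted p. Its human counterpart is a factor first described as binding papillomavirus and huntingtin gene promoters. It measured 570, 349, 555 and 365 in oil-DBP against 719, 729, 748 and 821 in oil-oil. All oil-DBP arrays were below all oil-oil arrays, pups 111 and 121 most, and the fold change was -0.79 ± 0.19 (limma adjusted p = 0.00962). Zfp653, whose human counterpart represses the nuclear receptor SF-1, a driver of steroid synthesis genes, measured 2032, 1969, 1877 and 1915 in oil-DBP against 2842, 2311, 2192 and 2416 in oil-oil. The oil-DBP arrays were tightly grouped and each lay under the lowest oil-oil array, with a fold change of -0.38 ± 0.09 (limma adjusted p = 0.0118).

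The other 7 falls had larger adjusted p-values, and 2 of them were in dim genes. Zfp384, a nuclear matrix factor that binds runs of adenine and is studied in bone, measured 1798, 1741, 1711 and 1833 in oil-DBP against 1920, 2108, 1939 and 2147 in oil-oil. The groups stood apart by a narrow margin, and it fell by 0.26 ± 0.08. Zfp956 (-0.48 ± 0.14) and Zfp438 (-0.38 ± 0.10) also had every oil-DBP array below every oil-oil array. Zfp110, known in mouse as NRIF, a partner of the p75 neurotrophin receptor, fell by 0.33 ± 0.10, and Zfp446 by 0.50 ± 0.14. In both of these 1 oil-DBP array, that of pup 105, lay within the oil-oil range (1975 against a lowest oil-oil value of 1901 for Zfp110, and 612 against 518 for Zfp446). Zfp9 measured 21.8, 9.0, 35.1 and 45.2 in oil-DBP against 68.2, 58.3, 49.7 and 74.6 in oil-oil, a fold change of -0.98 ± 0.30. Zfp839 measured 16.5, 19.7, 2.9 and 1.6 in oil-DBP against 44.8, 33.8, 19.8 and 34.9 in oil-oil, a fold change of -1.03 ± 0.29. Both had groups that stood apart and intensities near the dim end of the array. The limma adjusted p of these 7 falls lay between 0.0272 and 0.0473.

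The number of falls changed when single arrays were left out and when the RNA integrity number entered the fit. That number had a mean of 8.6 in oil-DBP and 8.425 in oil-oil, so the fit does not separate it fully from exposure. Without pup 111, 1 member passed as lower, and 201 of all genes in place of 852. Without pups 111 and 121 together, a choice made after their values were seen, 1 member passed in each direction, and Zfp697 was the one that rose (0.79, limma adjusted p = 0.00558). Of all genes 461 then passed as higher and 72 as lower. With the RNA integrity number in the fit, 0 members passed as lower and 2 as higher (limma; 8 samples are compared), and Zfp395 had a fold change of -0.71 with an adjusted p of 0.055. Of all genes 283 passed as lower in that fit, in place of 852, and 646 as higher, in place of 878. Zfp697 passed under every one of the 22 alternatives run for this comparison, in which Zfp395 lost its call in 3, Zfp189 and Zfp653 in 5 each, Zfp46 in 8, Zfp438 in 9, Zfp956 in 11 and Zfp384 in 14. Of 21 alternatives that kept them, Zfp839 lost its call in 10 and Zfp9 in 15. Markers of other cells moved in the same arrays: 5 peritubular myoid markers summed to between 4159 and 4851 in oil-DBP against 2932 and 3136 in oil-oil, 8 macrophage and leukocyte markers to between 692 and 2353 against 429 and 512, and 6 Leydig markers to between 6430 and 13550 against 14706 and 20462. The markers of a type did not move as 1. Of the 5 myoid markers 3 rose. Of the 8 leukocyte markers 2 rose, and the sum followed S100a8 (mean 279.3 against 2.7) and S100a9 (983.8 against 20.3). Csf1r (-0.40) and Cd163 (-0.15) had negative fold changes. Of the 6 Leydig markers 3 fell and 1 rose, and Star had a fold change of 1.11. The 7 spermatid markers summed to between 78341 and 119376 in oil-DBP against 98082 and 130919 in oil-oil. These ranges overlapped, but all 7 had negative fold changes, with a median of -0.46, and 4 of the 7 fell. The part of these cells in the members' changes was not tested.

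**Figure D1:**
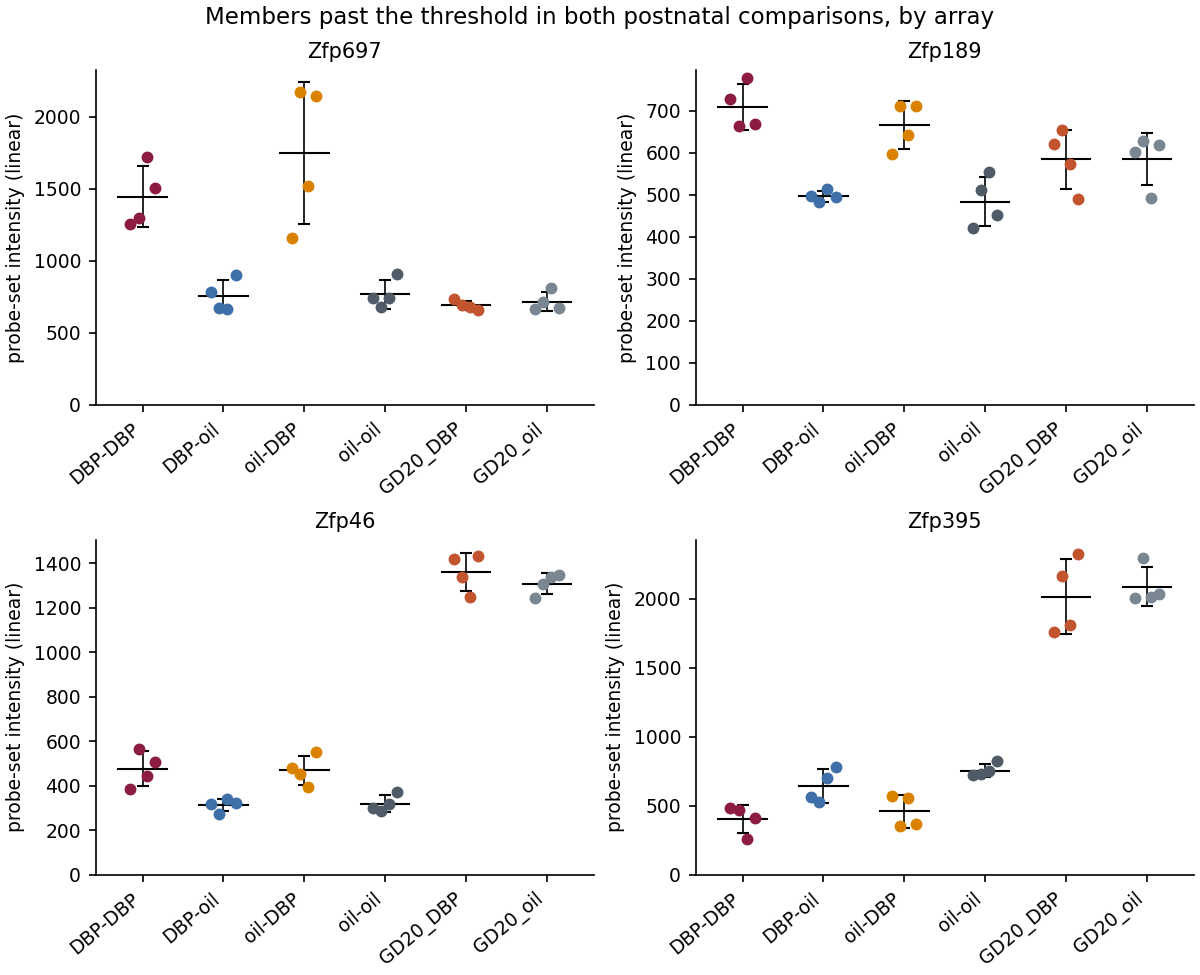
Deposited linear intensity (vertical axes) of Zfp697, Zfp189, Zfp46 and Zfp395 on each array of the 6 groups (horizontal axes); points are arrays, lines means and bars SD of 4 arrays. In Zfp697 the DBP-DBP arrays lie between 1258 and 1717 and the oil-DBP arrays between 1161 and 2171, above every DBP-oil and oil-oil array.

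The second comparison, DBP-DBP against DBP-oil, asks the same after fetal exposure and shares no array with the first. Here 3 members rose and 1 fell, 1.46% called higher and 0.485% called lower, where 5.16% of all genes were called higher and 2.17% lower. All 4 had also passed in the first comparison, in the same direction. Zfp697 measured 1258, 1295, 1717 and 1503 in DBP-DBP against 785, 669, 665 and 900 in DBP-oil. Again no array overlapped, and the fold change was 0.90 ± 0.15 (limma adjusted p = 0.000608). Zfp189 measured 729, 664, 779 and 669 in DBP-DBP against 496, 482, 514 and 496 in DBP-oil. The DBP-oil arrays lay close together, all DBP-DBP arrays were higher, and the fold change was 0.48 ± 0.10 (limma adjusted p = 0.00367).

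Zfp46 measured 383, 565, 444 and 508 in DBP-DBP against 319, 274, 338 and 322 in DBP-oil, and rose by 0.55 ± 0.13 (limma adjusted p = 0.0154). Every DBP-DBP array was above every DBP-oil array. Zfp395 measured 482, 465, 261 and 412 in DBP-DBP against 560, 523, 698 and 783 in DBP-oil. The groups did not overlap, pup 133 was lowest, and the fold change was -0.68 ± 0.19 (limma adjusted p = 0.0349). Without pup 133 it was -0.48 with an adjusted p of 0.166. Calls of Zfp697 and Zfp189 held under all 21 alternatives run for this comparison, and Zfp46 lost its call in 3 and Zfp395 in 7 of them. None of these alternatives had the poly-A spike-in level in the fit. That level was high on all DBP-DBP arrays and mixed on the DBP-oil arrays, and its part in these calls was not tested.

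The members that fell in the first comparison alone had values of both signs in the second. Zfp653 measured 1835, 1756, 1805 and 1540 in DBP-DBP against 2289, 2113, 2136 and 1830 in DBP-oil, a log2 difference of -0.29 ± 0.09 (limma adjusted p = 0.0869), and pups 124 and 134 made the groups overlap slightly. Zfp9 (-0.95, adjusted p = 0.0828) had every DBP-DBP array below every DBP-oil array, and Zfp839 (-0.59) and Zfp956 (-0.25) were lower on average. Zfp384 (-0.04), Zfp110 (-0.01), Zfp438 (-0.13) and Zfp446 (0.12) were near 0. The interaction of both exposures passed for 0 members in limma, so none of these differences between the comparisons is shown.

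**Figure D2:**
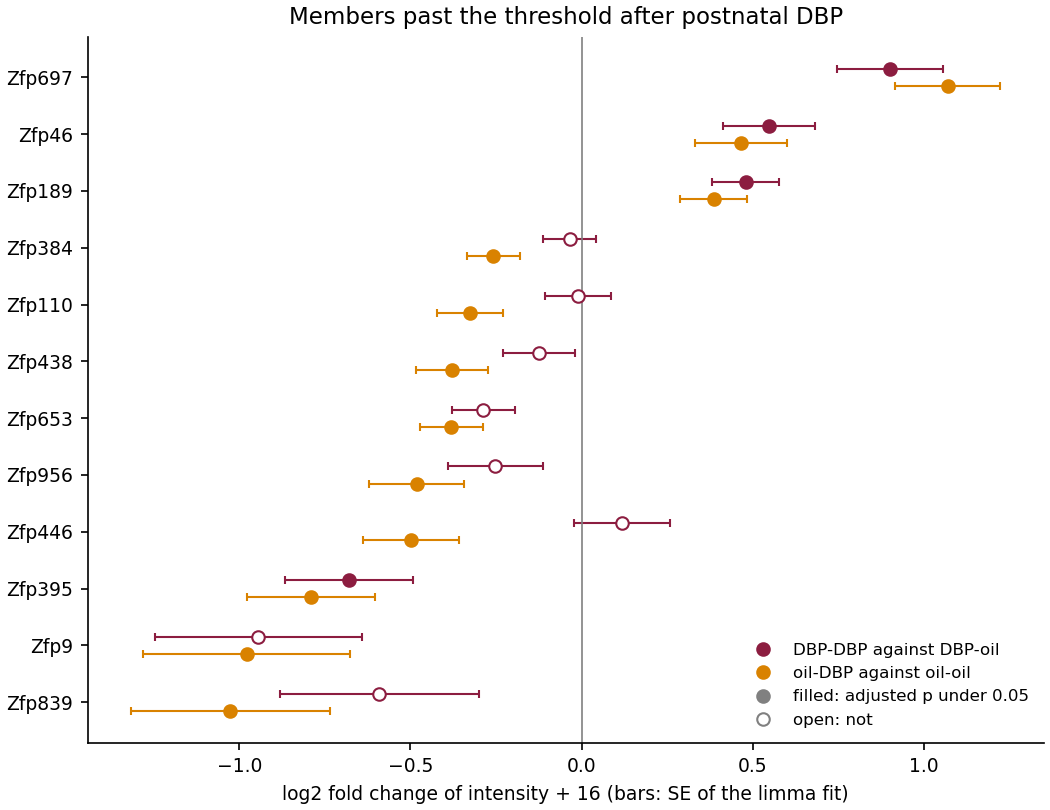
Log2 fold change of intensity + 16 (horizontal axis, bars are the SE of the limma fit) for the 12 members past the threshold in oil-DBP against oil-oil, in that comparison (orange) and in DBP-DBP against DBP-oil (dark red); filled points passed the threshold. Zfp697, Zfp46, Zfp189 and Zfp395 have filled points in both, at 0.90 and 1.07 for Zfp697.

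Over the whole set, most members were lower after postnatal DBP, as were most genes. In oil-DBP against oil-oil 141 members, 68.4%, had a negative fold change, against 64.6% of all genes and 63.7% of genes of like intensity. The last value weights all genes in 10 bins of mean intensity by the number of members in each. The median over members was -0.11, that over all genes -0.11 and that of genes of like intensity -0.11. Without pup 111 the members' median was -0.04 and 58.2% were lower, against -0.04 and 56.5% of all genes. In DBP-DBP against DBP-oil 128 members, 62.1%, were lower, against 62.9% of all genes and 61.9% of those of like intensity, and the medians were -0.05 over members and -0.07 over all genes. Members called lower made up 4.37% in the first comparison against 5.98% of genes of like intensity, and 0.485% against 2.55% in the second. Members called higher made up 1.46% in each, against 6.95% of genes of like intensity in the first and 5.89% in the second. The members share arrays and are not replicates, so these shares carry no test. Every oil-DBP array lay below every oil-oil array in 22 members (10.7%, against 8.52% of all genes) and above in 7 (3.40%, against 6.72%). For DBP-DBP against DBP-oil the counts were 7 below (3.40%, against 7.89%) and 5 above (2.43%, against 7.59%).

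**Figure D3:**
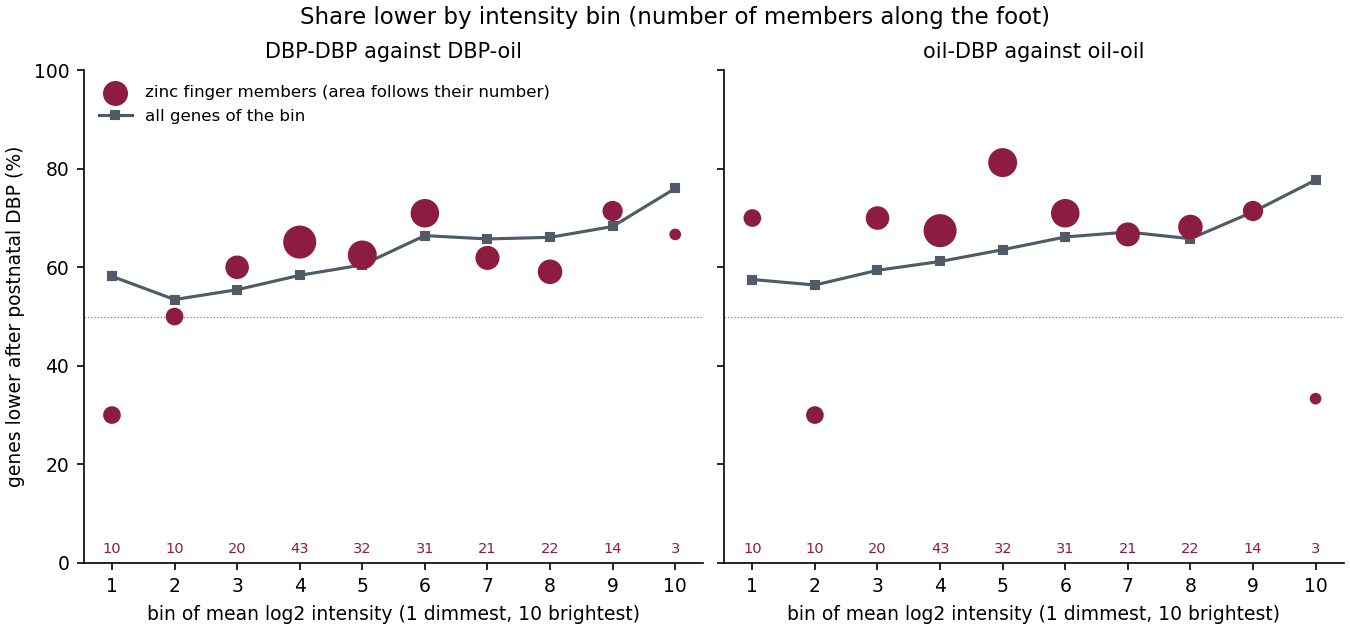
Percentage of genes with a negative log2 fold change after postnatal DBP (vertical axis) in 10 bins of mean log2 intensity (horizontal axis, 1 dimmest), for the members (circles, area by number, number printed at the foot) and all genes of the bin (squares). In bin 5, 62.5% of 32 members were lower against 60.5% of genes in DBP-DBP against DBP-oil, and 81.2% against 63.6% in oil-DBP against oil-oil; in bins 7 and 8 of oil-DBP against oil-oil 66.7% and 68.2% of members were lower against 67.2% and 65.8% of genes, and bins 1, 2 and 10 hold 10 or fewer members.

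Across both comparisons 101 members (49.0%) were lower in both, 38 (18.4%) higher in both and 67 had opposite signs. Of all genes 50.2% were lower in both and 22.7% higher in both. The same sign in both was found for 67.5% of members and 72.9% of all genes.

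**Figure D4:**
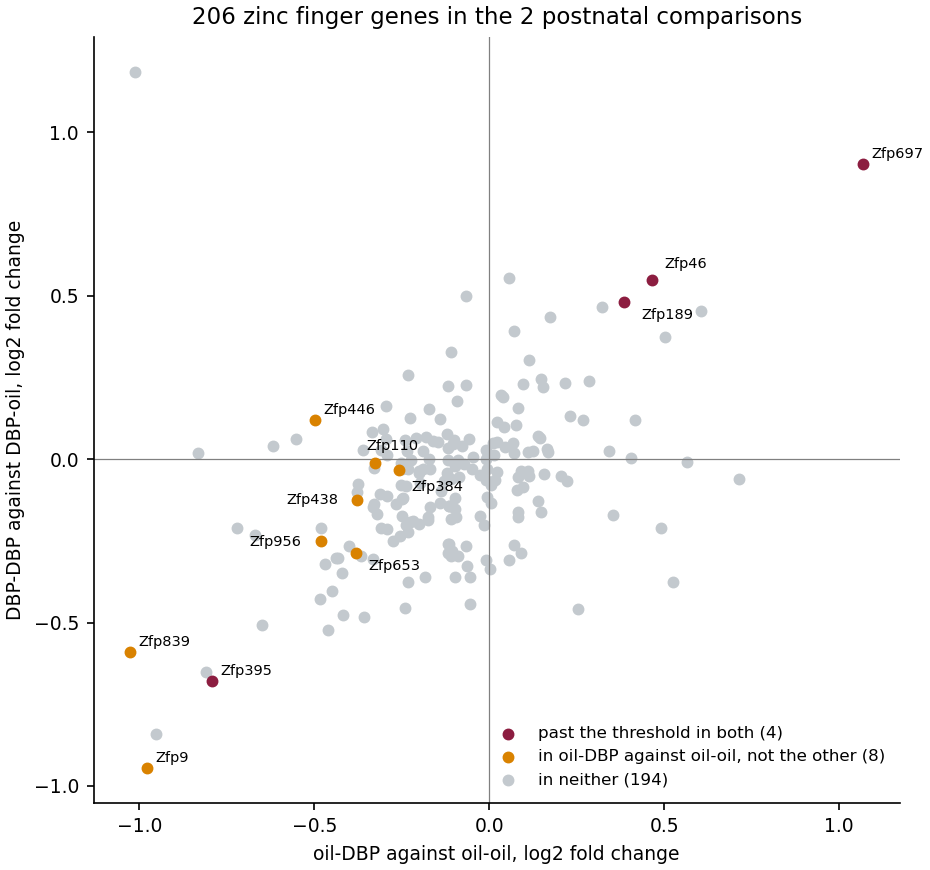
Log2 fold changes of the 206 members in oil-DBP against oil-oil (horizontal axis) and DBP-DBP against DBP-oil (vertical axis); colour marks where the adjusted p was under 0.05. Zfp697 stands alone at 1.07 and 0.90, Zfp395 lies at -0.79 and -0.68, and 194 members passed in neither comparison.

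Other probe sets of the members did not always give the same call as the brightest. Zfp41 passed as lower in both comparisons on a dimmer probe set (-0.57 ± 0.11, limma adjusted p = 0.00235, after fetal oil, and -0.47 ± 0.11, adjusted p = 0.0148, after fetal DBP), while its brightest gave -0.28 and -0.25 and did not pass. A dimmer probe set of Zfp503, a corepressor of the NET family active in the developing brain, fell by 1.03 ± 0.25 after fetal oil (limma adjusted p = 0.012), and its brightest gave -0.81 (adjusted p = 0.0704). For Zfp106 and Zfp91 a dimmer probe set passed as lower (-0.47 and -0.29), and the brightest had the opposite sign (0.15 and 0.08) and did not pass. A dimmer probe set of Zfp143 passed as higher after fetal DBP (0.52, adjusted p = 0.0445), against 0.04 on its brightest. These genes are therefore uncertain.

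By role, 18 of the 20 listed transcription factors with known targets were found under their listed symbols. The list's Zfp750 is on the array as Znf750 and was left out of these counts. Znf750, a dim gene, gave -0.95 (limma adjusted p = 0.0505) and -0.84 (adjusted p = 0.134). Among the 18, 1 fell in the first comparison (Zfp384), where 5.99% of all genes fell, and 0 in the second, where 2.17% did. Of the 18, 15 had negative values in the first comparison, where 64.6% of all genes did, with a median of -0.10 against -0.11 over all genes. In the second 12 did, where 62.9% of all genes did, with a median of -0.12 against -0.07. Zfp148, known as ZBP-89, measured 601, 676, 778 and 672 in oil-DBP against 674, 631, 624 and 719 in oil-oil, and the groups overlapped. Zfp281, a GC-box factor of embryonic stem cells, measured 1049, 1140, 1114 and 1191 in oil-DBP against 829, 959, 1019 and 1015 in oil-oil, with no overlap, but the difference of 0.17 did not pass (limma adjusted p = 0.239). Zfp217, an amplified gene of human breast cancer, kept values between 2226 and 2627 in oil-DBP against 2356 and 2464 in oil-oil. Zfp143 (-0.10), which anchors promoter loops, Zfp292 (-0.25) and Zfp521 (-0.01), an antagonist of early B-cell factors, did not pass either. Zfp410, which controls the remodeller gene Chd4, gave 0.06 after fetal oil and -0.31 after fetal DBP (adjusted p = 0.141). Zfp703, a relative of Zfp503, gave 0.34 and 0.03, and Zfp423, a partner of early B-cell factors in adipocytes and cerebellum, -0.06 and -0.44.

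Of the 13 members with roles in RNA, ribosome assembly or ubiquitin, out of 14 listed, 0 passed in either comparison and 6 had negative values in each, with medians of 0.01 and 0.00. Of all genes 12.2% and 7.33% passed, and 64.6% and 62.9% had negative values, with medians of -0.11 and -0.07. At an unadjusted p under 0.05 there were 2 in the first and 0 in the second (limma), where 31.61% and 18.75% of all genes were. Zfp207, the kinetochore and spliceosome protein BuGZ, measured 1543, 1446, 1618 and 1332 in oil-DBP against 1654, 1601, 1597 and 1775 in oil-oil, a log2 difference of -0.22 (adjusted p = 0.177). After centring, its groups did not overlap. Zfp622, which matures the large ribosomal subunit, gave 0.16 and 0.03, Zfp91, a ubiquitin ligase of NF-kB signalling, 0.08 and -0.16, Zfp330 0.02 and 0.11, and Zfp106, an RNA-binding protein needed by motor neurons, 0.15 and 0.25. Zfp706, which restrains self-renewal genes in mouse stem cells, gave 0.14 and -0.13.

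Of the 6 germ line, pluripotency and imprinting members on the array, out of 10 listed, 0 passed in either comparison (limma; 1 and 0 at an unadjusted p under 0.05). Of all genes 12.2% and 7.33% passed, and 31.61% and 18.75% had an unadjusted p under 0.05. Zfp57, which keeps imprints in mouse embryos, measured 169, 199, 296 and 290 in oil-DBP against 126, 183, 211 and 252 in oil-oil, and the groups overlapped widely. Zfp318, a testis zinc finger protein of mouse, measured 1328, 1658, 1408 and 1397 in oil-DBP against 1163, 1148, 1354 and 1468 in oil-oil, also with overlap. Zfp37, known in mouse spermatids, stayed dim, with means between 7.3 and 19.6 in all 6 groups and single arrays between 1.1 and 41.2, so that no difference could be seen at this signal.

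Other zinc-binding families were read the same way, beside the 6.18% of all genes called higher and 5.99% called lower after fetal oil, and 5.16% and 2.17% after fetal DBP. Of 25 Kruppel-like, Sp and Egr factors, 6 rose and 1 fell after fetal oil and 7 rose and 1 fell after fetal DBP. Egr1 (3.84 and 4.00), Egr2 (3.48 and 2.94) and Klf6 (1.44 and 1.64), immediate early factors, passed in both. Of 29 BTB zinc finger genes 1 rose (Zbtb38) and 1 fell (Zbtb39) in each comparison. Of 13 CCCH genes 1 rose and 2 fell after fetal oil, and 1 rose and 1 fell after fetal DBP. Zc3h12a, an endoribonuclease that limits inflammation, rose by 1.20 and 1.32. Of 60 RING finger genes 2 rose and 8 fell after fetal oil and 3 rose and 2 fell after fetal DBP, and of 18 DHHC palmitoyltransferases 0 passed in either. Of 26 genes of the KRAB corepressor machinery, out of 29 listed, Pphln1 of the HUSH silencing complex rose in both (0.74 and 0.49) and Mta2 of the NuRD complex fell in the first (-0.40, adjusted p = 0.0465).

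Fetal exposure was read in 3 further comparisons, and in each 0 members passed in limma. At GD20, where 0.556% of all genes passed (79 of 14217), 21 members (10.2%) had an unadjusted p under 0.05, as did 1855 of all genes (13.05%). Znf750, a factor of epidermal differentiation in humans, measured 46.9, 31.1, 40.5 and 30.9 in GD20_DBP against 58.8, 129, 109 and 80.1 in GD20_oil. The groups did not overlap, and the log2 difference was -1.01 ± 0.25 (adjusted p = 0.125). Zfp704 measured 1136, 1217, 1047 and 1139 in GD20_DBP against 1285, 1355, 1402 and 1462 in GD20_oil, -0.28 ± 0.07 (adjusted p = 0.136). Zfp61 measured 846, 832, 782 and 733 in GD20_DBP against 979, 900, 941 and 977 in GD20_oil, -0.25 ± 0.07 (adjusted p = 0.192), again without overlap. A dimmer probe set of Zfp61 did pass (-0.85 ± 0.15, adjusted p = 0.032).

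At GD20 124 members (60.2%) had negative values, against 45.6% of all genes and 49.4% of genes of like intensity. With arrays centred on their medians 46.1% of members were lower, against 36.6% of all genes, and with the 75th percentile as centre 49.5%, against 38.1%. After quantile normalization it was 50.5% of members, against 43.6% of all genes. Without dams 19 and 21, whose poly-A spike-in means were 6.598 and 6.436 against 8.17 to 8.77 on the other GD20 arrays, 51.5% of members and 48.0% of all genes were lower. This omission was not planned. A planned fit with the spike-in level, high or low, as covariate gave the same 51.5% and 48.0%. The arrays of the groups did not overlap in 17 members (8.25%, against 8.41% of all genes). Every GD20_DBP array lay below every GD20_oil array in 14 of them (6.80%, against 3.72% of all genes) and above in 3 (1.46%, against 4.68%).

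In DBP-oil against oil-oil, the lasting effect of fetal DBP without a second dose, 0 members and 0.0% of all genes passed, and 13 members (6.31%) had an unadjusted p under 0.05, as did 916 of all genes (6.44%). The median over members was 0.00. Zscan25 measured 18.2, 15.2, 2.6 and 2.0 in DBP-oil against 96.5, 62.3, 34.7 and 10.5 in oil-oil, a difference of -1.28 (adjusted p = 0.378) on a dim signal in which the groups overlapped. No overlap was found in 5 members (2.43%, against 3.92% of all genes): every DBP-oil array lay below every oil-oil array in 3 (1.46%, against 2.43% of all genes) and above in 2 (0.971%, against 1.5%). Zfp664 (-0.30) and Zfp623 (-0.49) had the other smallest p, and all 4 DBP-oil arrays lay below all 4 oil-oil arrays after centring. In DBP-DBP against oil-DBP 0 members and 0.0% of genes passed as well, and 27 members (13.1%) had an unadjusted p under 0.05, as did 1386 of all genes (9.75%). Znf768 measured 342, 372, 390 and 323 in DBP-DBP against 235, 243, 285 and 248.7 in oil-DBP, and the groups stood apart (0.50 ± 0.11, adjusted p = 0.192). Zfp367 (0.50) and Zfp110 (0.41) were also higher on every DBP-DBP array. The groups did not overlap in 15 members (7.28%, against 5.23% of all genes): 11 had every DBP-DBP array above every oil-DBP array (5.34%, against 2.69% of all genes) and 4 had every array below (1.94%, against 2.53%). The spike-in means were high on all DBP-DBP arrays and low on all oil-DBP arrays. With spike-in class in the fit, which the DBP-oil arrays of both kinds allow, 91 members (44.17%) were lower, with a median of 0.05. Of all genes 43.55% were lower in that fit, with a median of 0.06, and again 0 members and 0 genes passed in limma. The interaction passed for 0 members and 0.0% of genes, with 8 members (3.88%) at an unadjusted p under 0.05, against 651 of all genes (4.58%). Its smallest p belonged to Zscan25 (2.20), Zfp446 (0.62) and Zfp706 (-0.27), each with an adjusted p of 0.954.

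The step between ages was read as oil-oil at PND35 against GD20_oil. All GD20 arrays and the oil-oil array of pup 104 came from Trizol extraction, the other 3 oil-oil arrays from a column kit. Poly-A spike-in means lay between 8.168 and 8.455 on the GD20_oil arrays and between 5.895 and 6.061 on the oil-oil arrays. Age cannot be told apart from the cell types that appear by puberty or from this difference in the labelling controls. Extraction followed age but for pup 104. The median of all genes moved by 0.42 between these ages after each array was centred on its median and by -0.24 as deposited, so changes are given relative to scaling. After centring 156 members passed, where 75.9% of all genes did: 89 were higher (43.2%, against 49.2% of all genes and 45.0% of genes of like intensity) and 67 lower (32.5%, against 26.7% and 32.6%). As deposited the split was 46 higher and 113 lower, with the 75th percentile as centre 71 and 90, and after quantile normalization 69 and 84. The split over all genes moved with scaling too. It was 6993 higher and 3799 lower after centring and 4215 and 6315 as deposited. With the 75th percentile it was 5333 and 5087, and after quantile normalization 5111 and 5239. After centring the members' median was 0.16, against 0.42 over all genes and 0.22 over genes of like intensity. In all 4 scalings 46 members were higher and 67 lower, and this was not counted over all genes.

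The largest increase was that of Zfp819, a testis protein of mouse that binds Trim28 and represses retroelements. It measured 2853, 3631, 2498 and 2499 in oil-oil against 154, 83.4, 107 and 94.3 in GD20_oil, a difference of 5.19 ± 0.16 (limma adjusted p = 2.51e-12). Zfp474, a testis-specific gene in mouse, measured 1007, 971, 898 and 851 in oil-oil against 26.7, 26.3, 41.1 and 45.1 in GD20_oil (4.89 ± 0.16). Zfp672 (3.50), Zfp646 (3.23) and Zfp653 (3.22) followed, and in all 5 the lowest PND35 array stood far above the highest fetal one. After postnatal DBP, Zfp819 gave -0.38 (adjusted p = 0.0639) after fetal oil and -0.08 after fetal DBP, and Zfp474 gave -0.20 in both, so neither passed.

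Among members lower at PND35, Zfp423 measured 91.2, 37.9, 49.1 and 66.4 in oil-oil against 1569, 1786, 1801 and 1850 in GD20_oil (-3.91 ± 0.17, limma adjusted p = 8.09e-11). Another 2 of its 4 probe sets passed as higher (2.77 and 1.53), so the gene's direction is uncertain. Zfp275 measured 96.0, 132, 130 and 141 in oil-oil against 2150, 2107, 2274 and 1975 in GD20_oil (-3.28 ± 0.12). Zfp503 measured 129, 125, 95.6 and 155 in oil-oil against 1298, 1526, 1453 and 1304 in GD20_oil (-2.67 ± 0.13). A second of its 4 probe sets also passed as lower (-2.36), and the other 2 did not pass (0.34 and -0.12). Zfp618, which reads hydroxymethylated DNA in mammalian cells (-2.43), and Zfp347 (-2.33) completed the 5. All 10 kept their direction and their call under the 17 alternatives run. Zfp395 and Zfp46, which fell and rose after postnatal DBP, were both lower at PND35 than in the fetus (-0.79 and -1.33).

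**Figure D5:**
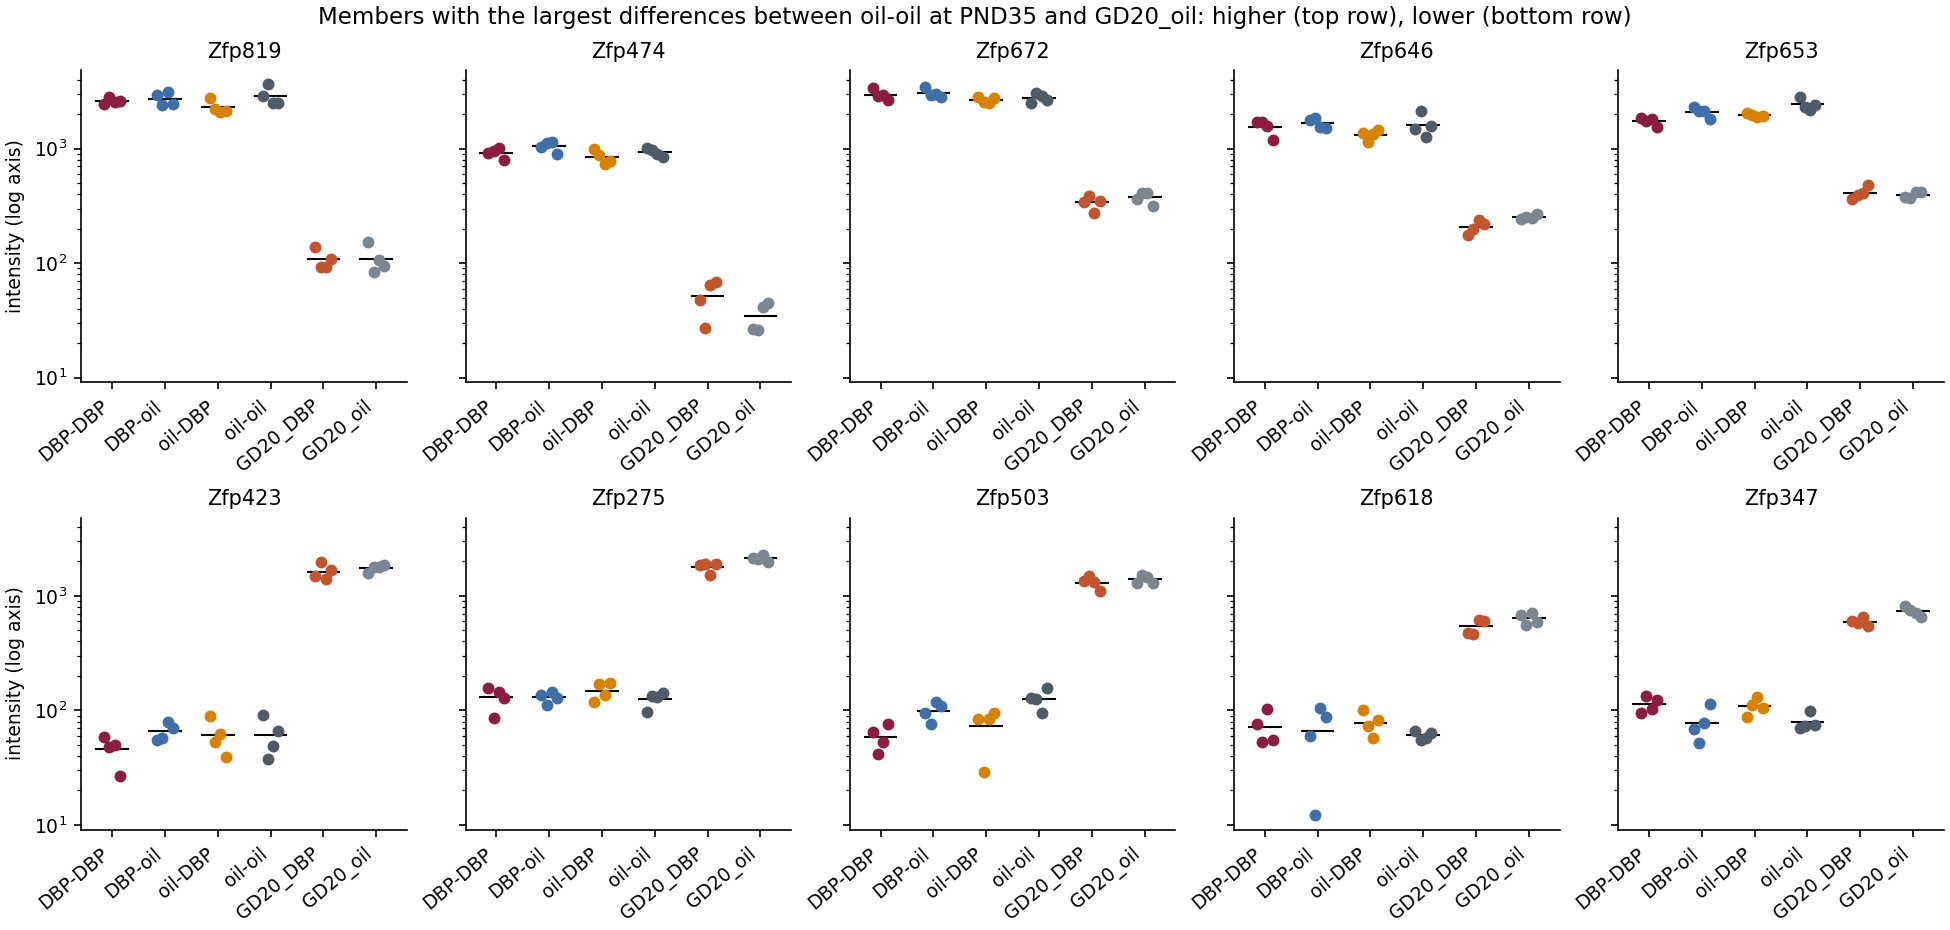
Deposited linear intensity on a log axis (vertical) of the 5 members with the largest increases (top) and decreases (bottom) in oil-oil at PND35 against GD20_oil, on every array of the 6 groups; points are arrays and lines means. Zfp819 lies at or above 2083 on all PND35 arrays and at or below 154 on all GD20 arrays.

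The brightest members by mean over 24 arrays were Zfp91, Zfp330, Zfp386, Zfp706, Zfp771, Zfp180, Zfp672 and Zfp61, listed by a measure that does not rank transcripts across probe sets. Of these, Zfp771 came closest to passing after postnatal DBP: it measured 2943, 2978, 2652 and 2819 in oil-DBP against 2535, 2143, 2295 and 2305 in oil-oil (0.23 ± 0.07, adjusted p = 0.0511), and 0.13 after fetal DBP. Zfp386 was at -0.25 and -0.01, and Zfp180 at -0.01 and 0.03.

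In the RefSeq gene table of GRCr8, 202 members could be placed, 55 of them on chromosome 1 and 17 on chromosome 10. Of these, 89 had another member within 5 genes, in 97 neighbouring pairs. In 50 of the 97 pairs (51.5%) both genes lay on the same side of the members' median change with age.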

How the data were processed

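Whole-testis RNA of 24 rats or litters was measured on Affymetrix Rat230_2 arrays, 4 per group. The values are linear intensity per probe set as the authors deposited them, made with GCOS 1.0 per the submitters' processing notes; how probes were summarized is not stated in them. Of 31099 probe sets, 57 controls were left out and 31042 tested. In the deposited platform annotation 20826 of these have 1 gene symbol, 436 several and 9780 none. The deposited intensity was analysed as log2(intensity + 16) with limma 3.58.1 (lmFit, eBayes with trend) in R 4.3.3, with Benjamini-Hochberg adjustment over 31042 probe sets and a threshold of 0.05. Arrays of a fit were centred on their medians where these spanned over 0.1 log2. The 8 GD20 arrays spanned 0.079 and were used as deposited. The 16 PND35 arrays, in 1 fit, spanned 0.155, and the 8 arrays of the age comparison 0.706, and both were centred. No filter on dim probe sets was applied. The number of arrays limits the precision. The code was tested on simulated data.

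The members and all lists were chosen with earlier results of these data known. Named were members past the threshold, those with the smallest p in each comparison, the 5 largest changes each way with age, the 8 brightest and 20 members listed by known role, of which 17 are on the array. Zfp446 and Zfp110, whose arrays overlap, and the genes with a call on a dimmer probe set alone were added after their values were seen. Genes of like intensity were taken from 10 bins of mean intensity. Alternatives were other scalings and pseudocounts, a dim filter at a mean of 64, array weights, covariates, blocks, all or plain probe sets, and leaving out arrays. Tables were made with Python 3.11.15, pandas 2.3.3 and numpy 2.4.6. Gene places and promoters came from RefSeq tables of GRCr8. A grouping by finger number or KRAB domain, planned from protein sequences, was not analysed here.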

Additional observations from a re-analysis of the deposited data

Results flagged for a closer look

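Groups of 4 arrays were examined for each of the 49 named members and for the median over all members, 300 in all, and in 15 of them 1 array stood apart, with a gap to its nearest neighbour above Dixon's 95% critical value as a share of the group's range; chance flags about 1 in 20 groups. The 15 values are given as deposited intensity, each with the range of the other 3 arrays of its group.

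At PND35, Zfp503 was 29.0 in oil-DBP pup 111, with the others at 83.5 to 94.5. Znf750 was 27.2 in oil-DBP pup 121, with the others at 2.12 to 3.32. Zfp819 was 2775 in oil-DBP pup 105, with the others at 2083 to 2204. Zfp623 was 107.0 in DBP-DBP pup 124, with the others at 180 to 202. Zfp61 was 2110 in DBP-DBP pup 135, with the others at 2519 to 2669. Zfp386 was 2743 in DBP-DBP pup 133, with the others at 3117 to 3187. Zfp367 was 1172 in DBP-oil pup 127 (others 1431 to 1537) and 1522 in oil-oil pup 110 (others 1158 to 1191). Zfp281 was 828.5 in oil-oil pup 104, with the others at 959 to 1019.

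At GD20, Zfp281 was 1551 in GD20_DBP dam 18, with the others at 1293 to 1323. Zscan25 was 9.74 in GD20_DBP dam 18, with the others at 35.4 to 41.0. Zfp275 was 1518 in GD20_DBP dam 19, with the others at 1863 to 1897. Zfp189 was 493 in GD20_oil dam 4, with the others at 603 to 628. Zfp386 was 1594 in GD20_oil dam 4, with the others at 1679 to 1693. Zfp395 was 2296 in GD20_oil dam 3, with the others at 2007 to 2031.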

How the results depend on the processing

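No paired analysis was possible because the groups share no replicate numbers in the labels. A block of pups with adjacent numbers, which the labels do not call pairs, gave 4 higher and 11 lower in oil-DBP against oil-oil. Of all genes 910 were higher and 1113 lower with that block. In oil-DBP against oil-oil, members called higher numbered 3 and became 5 as deposited, 5 with a pseudocount of 64, 1 with only the 8 arrays compared and 1 without pups 111 and 121. Over all genes the 878 called higher became 1029, 915, 677 and 461 in the same order. Members called lower numbered 9 and became 4 as deposited, 18 with the dim filter, 5 without the trend, 0 with the RNA integrity number, 3 without the 2 Trizol arrays, 2 with only the 8 arrays compared and 1 without pups 111 and 121. Over all genes the 852 called lower became 501, 1262, 374, 283, 645, 299 and 72 in the same order. The dim filter kept 174 members and 10780 genes. In DBP-DBP against DBP-oil, the 1 called lower became 4 with the dim filter, 0 without the trend, 4 with array weights, 2 with the RNA integrity number, 2 with pups of adjacent numbers as a block, 2 over all probe sets and 0 over plain probe sets. In the same order up to the block, the 308 of all genes called lower became 472, 207, 433, 313 and 318. At GD20, 1 passed over all probe sets. In DBP-DBP against oil-DBP, 2 passed with the RNA integrity number: Zfp110 (0.49) and Zfp367 (0.60), both at a limma adjusted p of 0.0368. Of all genes 18 passed as higher and 5 as lower in that fit. With age the median of 0.16 became -0.095 after quantile normalization, -0.20 with the 75th percentile, -0.50 as deposited and -0.05 with the dim filter. Over all genes the median of 0.42 became 0.03, 0.06, -0.24 and 0.16 in the same order. The counts with age became 46 higher and 113 lower as deposited, 134 higher over all probe sets, of which the members hold 327, and 46 higher where all 4 scalings had to match. Of all genes 4215 were higher and 6315 lower as deposited. The counts over all probe sets and over matching scalings have no count over all genes beside them.

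Leaving out 1 array at a time gave 1 to 6 higher and 1 to 14 lower, with medians of -0.14 to -0.04, for oil-DBP against oil-oil, and 2 to 3 higher and 0 to 2 lower, with medians of -0.07 to -0.04, for DBP-DBP against DBP-oil. It gave 85 to 89 higher and 62 to 69 lower, with medians of 0.13 to 0.20, for age. The counts stayed at 0 at GD20 (medians -0.05 to -0.01), for DBP-oil against oil-oil (-0.03 to 0.02), DBP-DBP against oil-DBP (-0.02 to 0.05) and the interaction (-0.01 to 0.07). The cause of these shifts was not tested. No array carries a depth, and dim members such as Zfp839 and Zfp37 lie near background.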
